A study of Rattus norvegicus with 2 samples.

Results

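The genes of the extracellular matrix and the integrins were compared between 2 cultures of rat cortical neurons, one given the Scramble control plasmid by electroporation and the other a PIWIL1 RNAi plasmid. Members were chosen by their rat symbol: collagen chains, laminin chains, every symbol beginning with Itga or Itgb, and Fn1, Sparc, Nid1, Nid2, Bgn, Dcn, Lum, Timp1, Timp2, Timp3, Vcan, Ncan and Bcan. The rule found 41 of the 9894 genes listed in either library, under 40 symbols, since brevican was listed under 2 identifiers. No value was found for Nid1 or Vcan, which were not analysed here.

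Both libraries came from dissociated somatosensory cortex of E16 Sprague-Dawley rats, grown for 48 h on poly-lysine in Neurobasal medium with fetal bovine serum and B27, and there was 1 library for each plasmid. The plasmids expressed a scrambled sequence or an siRNA against PIWIL1 from the pSuper vector, and the sources used here do not say which of the study's rat siRNAs was sequenced. RNA was taken from the whole dish, with no sort for electroporated cells, so that fewer cells of a type and less RNA per cell cannot be told apart. Piwil1 itself could not be looked up by symbol in the tables, so its knockdown was not checked here. Each transcript was read as tags of 21 bases that begin with CATG, and the number of copies of a gene's tags was its count. The Scramble library held 1947600 copies on genes and the PIWIL1 RNAi library 1865913, and levels are given in TPM, which scales a gene's copies to the library's clean tags but takes no account of transcript length. A gene with 3 copies has 0.886 TPM (Scramble) or 0.908 TPM (PIWIL1 RNAi), taken here as the floor below which no fold is given.

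The extracellular matrix is the mesh of secreted proteins on which cells sit and move. Fibrillar collagens and fibronectin form its fibres, network collagens, laminins and nidogens form the basement membrane that underlies the pia and the vessels, and chondroitin sulfate proteoglycans such as neurocan and brevican fill the spaces between neural cells. TIMPs inhibit the metalloproteinases that cut the matrix. Integrins are receptors made of an alpha and a beta subunit that bind matrix outside the cell and link it to actin inside. In the developing cortex, beta1 integrins anchor the end feet of radial glia at the pial basement membrane. Fibrillar collagens are made mainly by fibroblast-like cells, and marker genes of the cell types that such a culture could hold are given after the members.

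The tags below are those that the results return to, shown so that tags of one gene can be set side by side, with capitals for the CATG site and for the last 2 bases, and with sites numbered from the 3′ end of the gene. Those of Col18a1, Sparc and Col1a1 follow the rule for naming genes, and the others were chosen after their values were seen.
Col18a1, site 1: CATGgggcttgtcactcagAG
Col18a1, site 2: CATGcttgaggagtgggacCC
Sparc, site 1: CATGcgaactctcacagtgAT
Sparc, site 4: CATGggcagaccaatacctCA
Col1a1, site 5: CATGgactttggaaaacatTT
Col1a1, site 1: CATGtggaaatgacccaacGC
Col1a1, site 10: CATGccgtgacctcaagatGT
Fn1, site 1: CATGccaacactttactacTG
Fn1, site 4: CATGtctcgggaatggaaaGG
Fn1, site 3: CATGaagcaacgtgttatgAC
Fn1, site 2: CATGccgttggacgtgcagGC
Itgb1, site 3: CATGcaggtttggaaaatgTA
Itgb1, site 1: CATGactgattctcagcttTA
Col4a1, site 1: CATGgtgtctatgatagtgCG
Col4a1, site 3: CATGgtgctactccctcctTG
Timp2, site 4: CATGaataaaacatcaatcAT
Ncan, site 4: CATGcctacctggtttattTG

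As a group, the members differed little between the 2 libraries. A call needed both an FDR (Fisher's exact test) no higher than 0.05 and a log2 ratio of 0.58 or beyond in size. Col18a1 fell past both limits and no member rose past both. That is 1 of 41 members lower, beside 5.97% of all genes, and 0 of 41 higher, beside 2.96%, or 1 of 41 against 8.93% in either direction. At an unadjusted p under 0.05, 6 members were lower, beside 15.5% of all genes, and 2 higher, beside 11%. Of the 34 members listed in both libraries, 16 had a higher and 18 a lower level in the PIWIL1 RNAi library, and their median log2 ratio was -0.078, beside -0.085 for all 8899 genes listed in both. With 1 library per plasmid there was no replicate check. The test says how these libraries differ, not the conditions. The exact 95% confidence intervals (CI) cover counting error only.

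All 41 members together went from 6083 copies under Scramble to 5473 under PIWIL1 RNAi (log2 ratio -0.12, 95% CI -0.17 to -0.064). Sparc and Col1a1 held a large part of these copies. Without Sparc the log2 ratio of the sum was -0.053 (95% CI -0.12 to 0.0094), and without Sparc and Col1a1 it was -0.035, both alternatives chosen after seeing the data. With edgeR's TMM factors it was -0.022. The small deficit of the summed copies therefore depended on 1 gene and on the scaling.

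**Figure D1:**
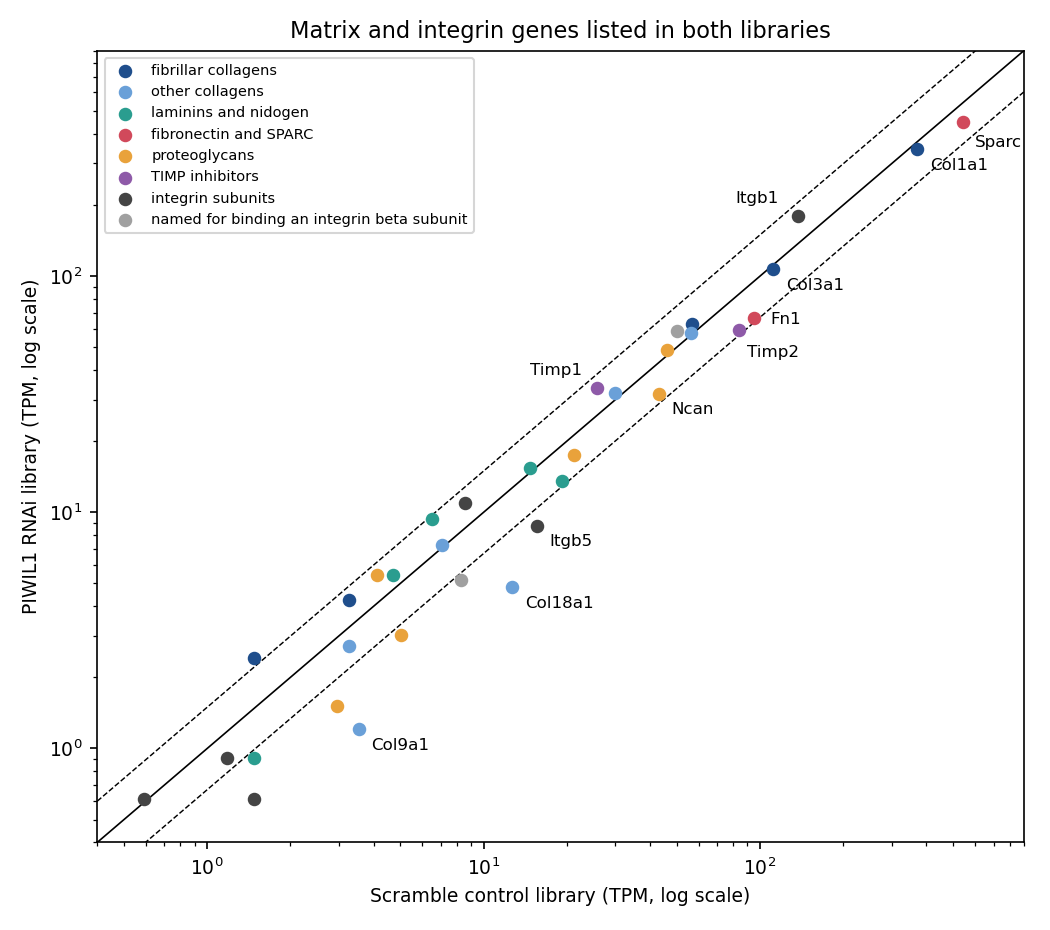
Level of each of the 34 members listed in both libraries, as TPM in the Scramble control library (x axis, log scale) and in the PIWIL1 RNAi library (y axis, log scale), coloured by role. The solid line marks equal levels and the dashed lines a log2 ratio of 0.58 in either direction. Sparc and Col1a1 lie at the top right close to the solid line. Col18a1 lies below the lower dashed line, as do other members that did not pass the FDR threshold, among them Itgb5 and Col9a1.

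Depth set how much could be said of each gene. With both libraries added, 16 members had at least 100 copies, 11 had 20 to 99 and 14 had fewer than 20. Of the 16 deeply read members, 4 passed the FDR threshold alone: Sparc, Fn1 and Timp2 were lower and Itgb1 was higher. With Col18a1, 4 of 41 members were lower at the FDR alone, beside 9.53% of all genes, and 1 was higher, beside 7.14%. Among all genes with at least 100 copies, 16% were lower and 13.4% higher at the FDR alone, and 8.46% and 4.62% were called, beside none of the 16 members. For 9 members the whole confidence interval lay within 0.58 of 0, which was the case for 21.9% of all genes and for 46.2% of those with at least 100 copies. They were Sparc, Col1a1, Col1a2, Col3a1, Col4a1, Col6a2, Bgn, Itgb1 and Itgb1bp1. For these genes a ratio past the study's threshold lay outside the counting interval between the 2 libraries.

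The fibrillar collagens, which form the tensile fibres of connective tissue, were close to equal. Col1a1, which encodes the alpha1 chain of type I collagen, had 1254 Scramble and 1143 PIWIL1 RNAi copies, or 370 and 346 TPM (log2 ratio -0.098, 95% CI -0.21 to 0.019). Its tags ran in opposite directions: the site 5 tag went from 677 to 513 copies and the site 10 tag from 33 to 8, while the site 1 tag went from 254 to 314. The site 7 tag, which ends in TT as the site 5 tag does, went from 107 to 122 (95% CI of its log2 ratio -0.16 to 0.61). Without the site 5 tag the gene had 577 and 630 copies (log2 ratio 0.16, 95% CI -0.0024 to 0.33). Its partner chain Col1a2 had 193 and 207 copies (log2 ratio 0.14, 95% CI -0.15 to 0.43). Col3a1, the chain of type III collagen, had 379 and 355 copies (log2 ratio -0.058, 95% CI -0.27 to 0.15). All 3 of these intervals included 0. The minor fibrillar chains were read at low depth: Col5a3 had 11 and 14 copies, Col2a1, the cartilage collagen, had 5 and 8, and Col5a1 had 2 in the Scramble library only. Summed over the 6 genes, the copies went from 1844 to 1727 (log2 ratio -0.059, 95% CI -0.15 to 0.037).

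Among the other collagens, Col18a1 was the exception. It encodes the alpha1 chain of type XVIII collagen, a basement membrane collagen whose C-terminal fragment is endostatin. Its copies fell from 43 to 16 (12.7 and 4.84 TPM), which is 0.382 times the Scramble level (log2 ratio -1.39, 95% CI -2.32 to -0.53, Fisher's exact test FDR 0.00889). Its copies lay on 7 tags. The tag at site 1 went from 20 to 6 copies and the tag at site 2 from 8 to 5. The tags at sites 7, 6 and 5 had 8, 4 and 3 copies in the Scramble library only, while those at sites 9 and 3 had 3 and 2 copies in the PIWIL1 RNAi library only. The fall was therefore spread over several sites, each with few copies. Without its most copied tag the gene went from 23 to 10 copies (log2 ratio -1.17, 95% CI -2.40 to -0.038). With edgeR's exact test and replicate variation set to a coefficient of 0.1, the FDR of Col18a1 was 0.0852 and no member passed.

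The remaining collagens did not pass the test. Col4a1, the main network-forming chain of basement membranes, had 190 and 189 copies (log2 ratio 0.028, 95% CI -0.27 to 0.33). Col6a2, a chain of the beaded filament collagen, had 101 and 106 copies (log2 ratio 0.11, 95% CI -0.30 to 0.51). The fibril-associated collagen Col16a1 had 24 copies in each library, and Col9a1, of the same class, had 12 and 4 (log2 ratio -1.55, Fisher's exact test FDR 0.251). Col7a1, which forms anchoring fibrils, had 11 and 9 copies. Col23a1, a transmembrane collagen, had 2 copies in the Scramble library only, and Col8a1 had 2 in the PIWIL1 RNAi library only. The 2 copies of Col23a1 and of Col8a1 were too few to show a difference, and the interval of Col9a1 was wide (95% CI -3.64 to 0.17).

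The laminin chains and nidogen-2, the other scaffold of the basement membrane, were read from few copies and none passed the test. Lamb2, the beta2 chain, had 50 and 51 copies (log2 ratio 0.065, 95% CI -0.53 to 0.66). Lamc1, the gamma1 chain shared by most laminins, had 22 and 31 copies, and Lama1, the alpha1 chain of embryonic basement membranes, had 16 and 18. Lama5 had 5 and 3 copies, and Lamc3 had 3 in the PIWIL1 RNAi library only. Nid2, which bridges laminin and type IV collagen, had 65 and 45 copies (log2 ratio -0.49, 95% CI -1.08 to 0.076).

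**Figure D2:**
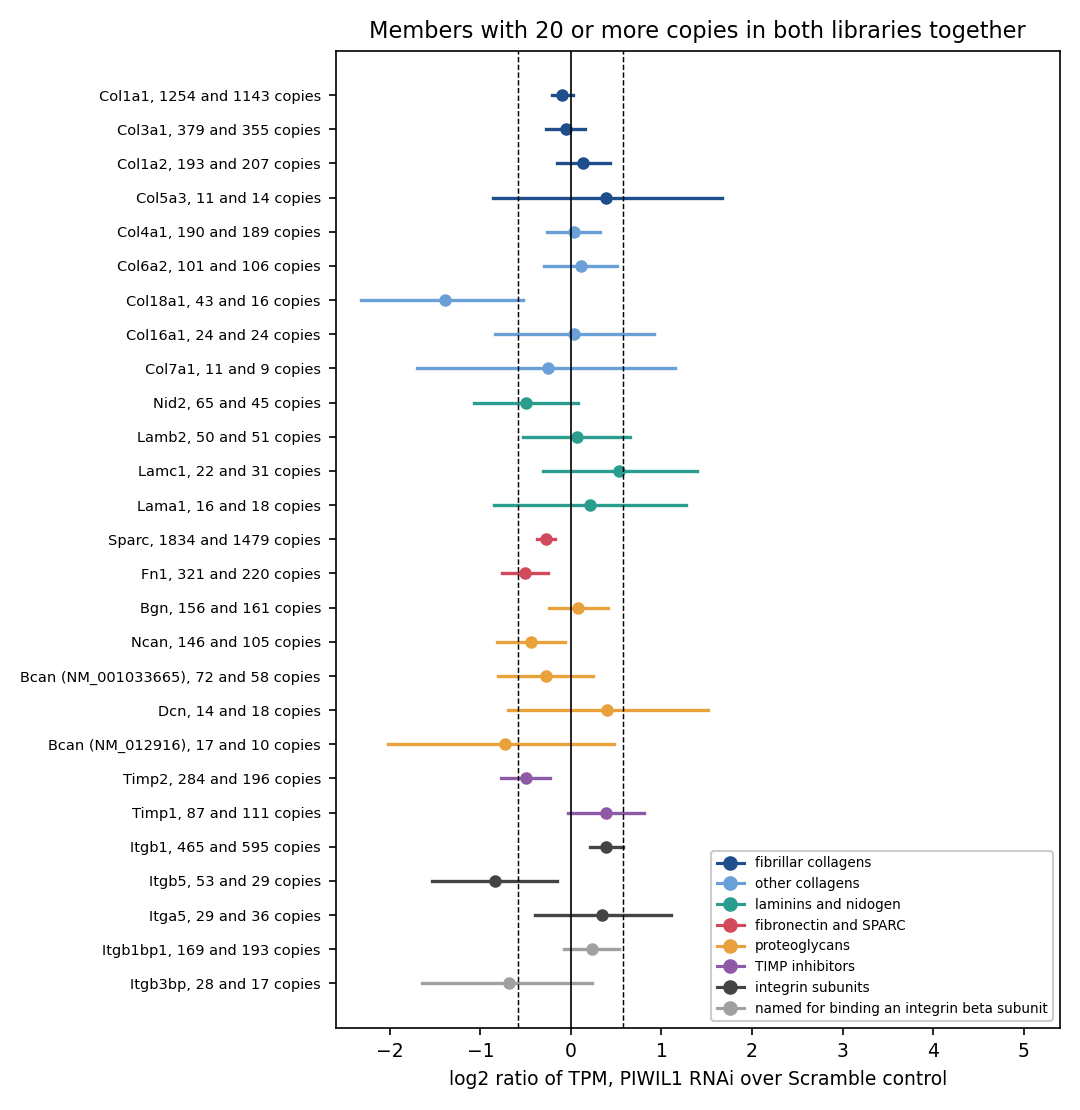
Log2 ratio of TPM (PIWIL1 RNAi over Scramble control, x axis) of the 27 members with at least 20 copies, with the copies in the Scramble and the PIWIL1 RNAi library after each name. Points are ratios, bars are exact 95% confidence intervals for counting error, and dashed lines mark 0.58 in either direction; Col18a1 lies farthest to the left, and Sparc, Col1a1 and Itgb1 have short intervals between the dashed lines.

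Sparc and Fn1 passed the FDR threshold, with lower copies in the PIWIL1 RNAi library, but neither reached the log2 threshold. Sparc encodes osteonectin, a secreted glycoprotein that binds collagen and calcium. It had 1834 Scramble and 1479 PIWIL1 RNAi copies, or 542 and 448 TPM, which is 0.827 times the Scramble level (log2 ratio -0.27, 95% CI -0.37 to -0.17, Fisher's exact test FDR 1.53e-05). Fn1 encodes fibronectin, a ligand of alpha5beta1 integrin. It had 321 and 220 copies, or 94.8 and 66.6 TPM, which is 0.703 times the Scramble level (log2 ratio -0.51, 95% CI -0.76 to -0.26, Fisher's exact test FDR 0.00151).

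The deficit of both genes lay on part of their tags. For Sparc, the site 1 tag held 84.8% of the copies and went from 1590 to 1219, whereas its other tags together went from 244 to 260 (log2 ratio 0.13, 95% CI -0.13 to 0.39). For Fn1, the site 1 tag went from 165 to 72 copies and the site 4 tag from 64 to 36. The site 3 tag went from 36 to 47 copies and the site 2 tag from 40 to 42. Without the site 1 tag, Fn1 had 156 and 148 copies (log2 ratio -0.040, 95% CI -0.37 to 0.29). Tags of the same gene thus gave different ratios, and in both genes the lower value of the sum came from the most copied tag.

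The proteoglycans did not pass the test in either direction. Bgn, which encodes biglycan, a small leucine-rich proteoglycan that binds collagen, had 156 and 161 copies (log2 ratio 0.082, 95% CI -0.25 to 0.41). Its relatives Dcn (decorin) and Lum (lumican) had 14 and 18 copies and 10 and 5 copies. Ncan, which encodes neurocan, a chondroitin sulfate proteoglycan of the embryonic brain, had 146 and 105 copies (log2 ratio -0.44, 95% CI -0.82 to -0.068, Fisher's exact test FDR 0.122). A single tag carried most of that difference: the site 4 tag of Ncan went from 42 to 10 copies, and the other tags together from 104 to 95. Bcan, which encodes brevican, had 72 and 58 copies under NM_001033665 (log2 ratio -0.28, 95% CI -0.80 to 0.24) and 17 and 10 under NM_012916.

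The TIMPs, inhibitors of matrix metalloproteinases, did not move together. Timp2 passed the FDR threshold with lower copies but not the log2 threshold. It had 284 and 196 copies, or 83.9 and 59.3 TPM, which is 0.708 times the Scramble level (log2 ratio -0.50, 95% CI -0.77 to -0.23, Fisher's exact test FDR 0.00444). One tag, at site 4, held 97.3% of its copies and went from 276 to 191, so that the value of Timp2 rests on this tag. Timp1 had 87 and 111 copies (log2 ratio 0.39, 95% CI -0.030 to 0.81, Fisher's exact test FDR 0.180). Timp3, which binds to the matrix itself, had 2 copies in the PIWIL1 RNAi library only.

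Of the integrin subunits, Itgb1 was the only one to pass the FDR threshold, with higher copies in the PIWIL1 RNAi library, and it did not reach the log2 threshold. Itgb1 encodes the beta1 subunit, the common partner of the laminin, collagen and fibronectin receptors. It had 465 and 595 copies, or 137 and 180 TPM, which is 1.31 times the Scramble level (log2 ratio 0.39, 95% CI 0.21 to 0.57, Fisher's exact test FDR 5.11e-05). The tags at sites 3 and 1 went from 145 to 225 and from 159 to 205 copies. It had 7 tags of 20 copies or more. The 3 most copied were higher, with an interval that included 0 for the third (site 6, 52 and 70 copies), and the other 4 were lower with intervals that included 0. Without the site 3 tag the gene had 320 and 370 copies (log2 ratio 0.25, 95% CI 0.026 to 0.47).

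The other integrin subunits were read at low depth. Itgb5, the beta subunit that pairs with alphaV, had 53 and 29 copies (log2 ratio -0.83, 95% CI -1.54 to -0.15), and its FDR of 0.0782 by Fisher's exact test missed the threshold. Its most copied tag went from 39 to 19. Itga5, the alpha subunit of the fibronectin receptor, had 29 and 36 copies (log2 ratio 0.35, 95% CI -0.40 to 1.11). Itga8 had 5 and 2 copies, Itgae 4 and 3, and Itga7 had 2 in each library.

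Beginning with Itgb does not make a gene an integrin, and 3 members are named for binding a beta subunit. Itgb1bp1, which encodes a cytoplasmic protein that binds the beta1 tail, had 169 and 193 copies (log2 ratio 0.23, 95% CI -0.078 to 0.53). Itgb3bp, which also bears the name centromere protein R, had 28 and 17 copies on 1 tag. Itgb1bp2 had 3 copies in the PIWIL1 RNAi library only. None of the 3 passed the test.

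The bases at the end of a tag went with its ratio. Of the 64 member tags with at least 20 copies, 32 were higher and 32 lower in the PIWIL1 RNAi library, and the intervals of 10 lay below 0 (15.6%) and of 8 above 0 (12.5%), beside 14.8% and 9.99% of all 16021 tags of that depth. All 10 tags with an interval below 0 ended in guanine or thymine, among them the site 1 and site 4 tags of Fn1 and the printed tags of Timp2 and Ncan, and 7 of the 8 with an interval above 0 ended in adenine or cytosine. The exception among those 8 was the site 1 tag of Col4a1, which went from 74 to 115 copies while the site 3 tag of the same gene went from 64 to 37. Among the 10, the site 1 tag of Col18a1 ended in AG. The median log2 ratio of all 1027 tags with that end was 0.11, whereas it was -0.67 for the end TG and -0.55 for GG. The median log2 ratio was -0.50 for the 24 member tags ending in guanine or thymine and 0.13 for the 40 ending in adenine or cytosine. Over all tags of that depth the medians were -0.30 and 0.077. The split by end was not complete there, since 574 of 8828 tags ending in adenine or cytosine had an interval below 0 and 346 of 7193 ending in guanine or thymine had one above 0. Tags of 1 gene share their source, so these are counts of tags and not of genes.

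**Figure D3:**
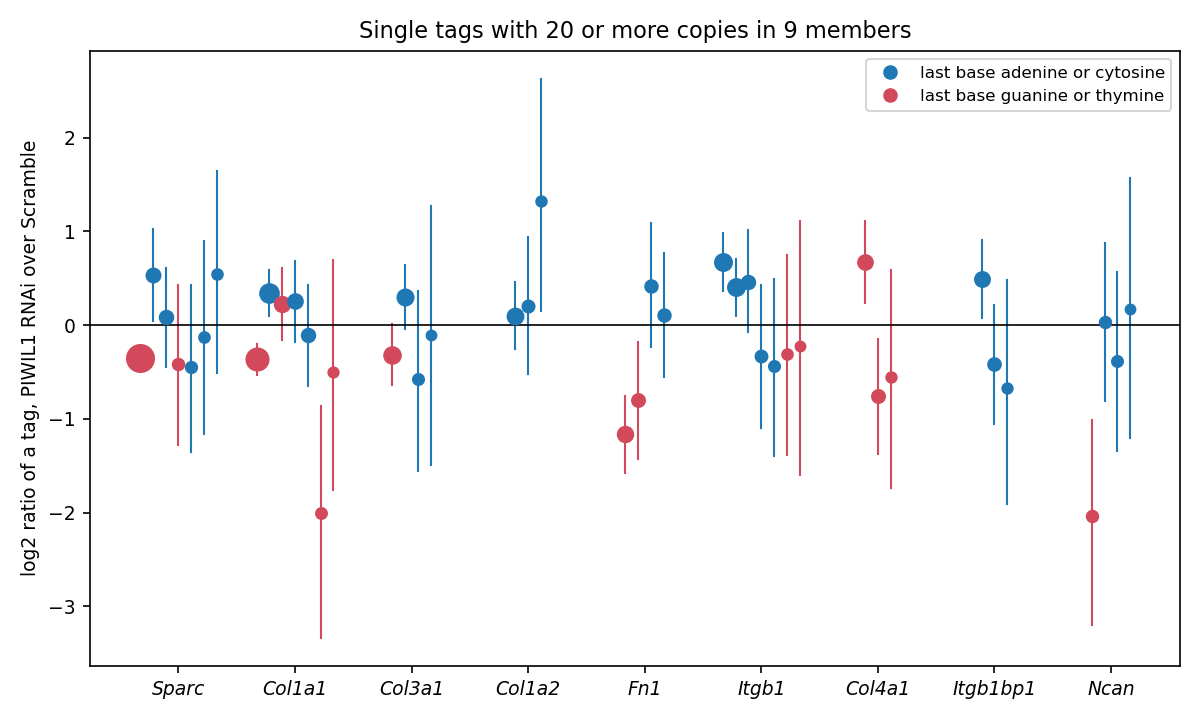
Log2 ratio (PIWIL1 RNAi over Scramble control, y axis) of single tags with at least 20 copies in 9 members, ordered within each gene by copies from left to right, with exact 95% confidence intervals for counting error and a point area that grows with the copies. Colour gives the last base of the tag; the first tags of Sparc, Col1a1, Fn1 and Ncan end in guanine or thymine and lie below 0, as do the site 4 tag of Fn1 (log2 ratio -0.79) and the site 10 tag of Col1a1 (-2.01), while the intervals of the other tags of these genes include 0 or lie above it.

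Copies were therefore also corrected for the median ratio of tags with the same end, taken relative to the median of all tags. With this correction, Sparc had a log2 ratio of -0.046 (Fisher's exact test FDR 1.0), Fn1 of -0.19 (Fisher's exact test FDR 0.558) and Timp2 of -0.19 (Fisher's exact test FDR 0.553), and none of these 3 passed the FDR threshold any longer. Itgb1 still passed it, with a log2 ratio of 0.31 (Fisher's exact test FDR 0.00149). Col18a1 stayed called, with a log2 ratio of -1.51 (Fisher's exact test FDR 0.00389), beside 3.7% of all genes called lower after the correction and 1.89% called higher. No member tag ended in 8 or more adenines. Tags that share an end still vary around their median, which this correction leaves in place.

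**Figure D4:**
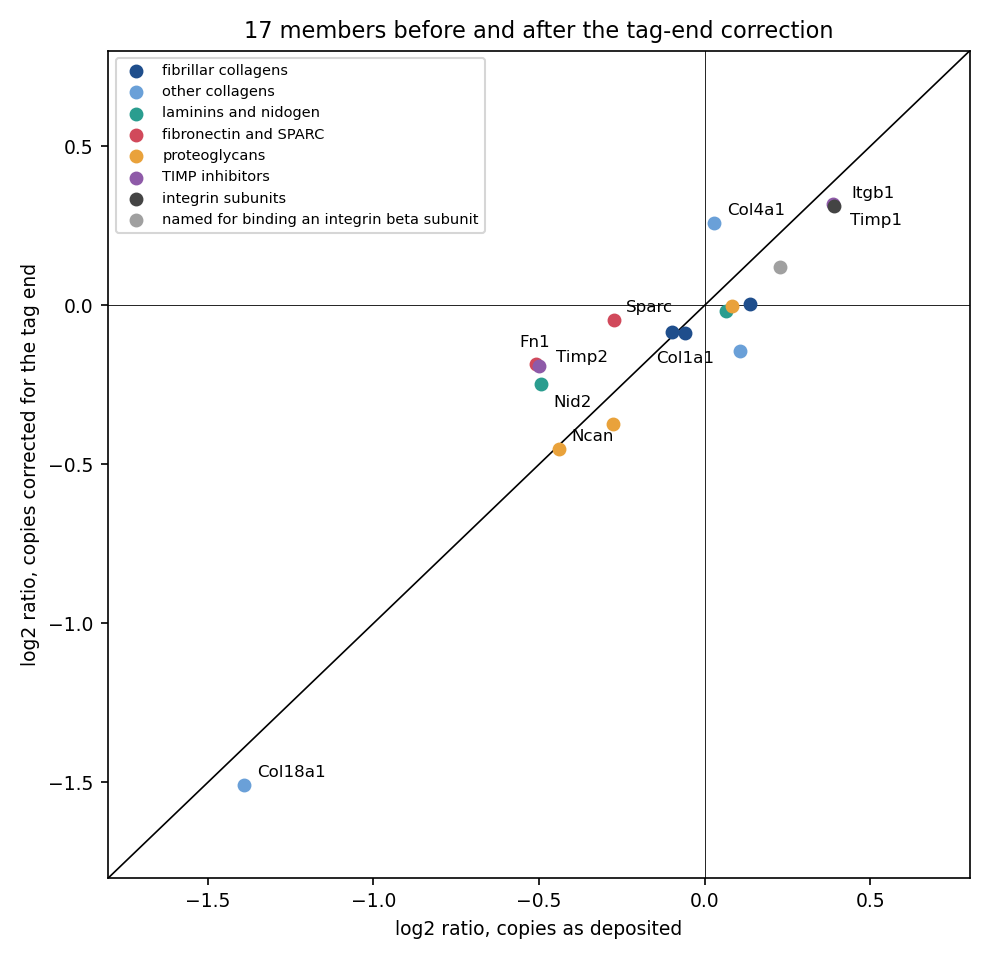
Log2 ratio (PIWIL1 RNAi over Scramble control) of 17 members, those with at least 100 copies and Col18a1, from the copies as deposited (x axis) and after the correction for the tag end (y axis), with the line of equality. Sparc, Fn1 and Timp2 moved towards 0. Col18a1 did not, and neither did some others, among them Col4a1 (from 0.028 to 0.26) and Ncan (from -0.44 to -0.45).

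Lists of other genes of the same pathways were counted in the same way. The shares to set beside them are those of all genes: 5.97% were called lower and 2.96% higher, and 9.53% were lower and 7.14% higher at the FDR alone. Of 33 other matrix proteins, 21 were listed and none was called, and at the FDR alone 2 were lower and 1 higher. Mfap2, a microfibril protein, had 731 and 501 copies and Spp1 (osteopontin) 170 and 112, while the microfibril-associated Mfap4 had 322 and 390. Of 14 genes of collagen biosynthesis, 11 were listed and 2 rose past both thresholds: P4hb, the beta subunit of prolyl 4-hydroxylase, which also acts as protein disulfide isomerase, from 502 to 745 copies (log2 ratio 0.61), and Pcolce, an enhancer of procollagen cleavage, from 19 to 39 (log2 ratio 1.07). After the tag-end correction the log2 ratio of P4hb was 0.49, below the log2 threshold. Pcolce was still called higher after it (log2 ratio 1.08, Fisher's exact test FDR 0.0467). Serpinh1, the collagen chaperone, had 231 and 195 copies.
Of 19 matrix proteases and their inhibitors, 14 were listed and 1 was called: Mmp24, a membrane-bound metalloproteinase, fell from 418 to 260 copies (log2 ratio -0.65). Of 16 matrix receptors other than integrins, 13 were listed and 2 were called, the heparan sulfate proteoglycans Gpc1, which fell from 390 to 241 copies (log2 ratio -0.66), and Gpc2, which fell from 195 to 122 (log2 ratio -0.64). After the correction the log2 ratios were -0.41 for Mmp24, -0.75 for Gpc1 and -0.55 for Gpc2, and of these only Gpc1 was still called. Sdc3, the most copied of the listed receptors, went from 528 to 345 copies (log2 ratio -0.578, and -0.41 after the correction). It was lower at the FDR alone and lay just inside the log2 threshold. Of 19 focal adhesion genes, 13 were listed and 1 was called: Tgfb1i1, a LIM adaptor also named Hic-5, fell from 109 to 52 copies (log2 ratio -1.03, and -0.92 after the correction). Actn4 went from 466 to 320 copies (log2 ratio -0.51) and was called lower only after the correction (log2 ratio -0.60). Ilk, the kinase-like protein that binds the beta1 tail, had 467 and 533 copies. The median log2 ratio of the listed genes was -0.019 for other matrix proteins, -0.19 for collagen biosynthesis, -0.050 for proteases and inhibitors, -0.10 for the other receptors and -0.16 for focal adhesion, beside -0.085 for all genes. Summed copies gave other values: the log2 ratio of the sum was 0.29 (95% CI 0.17 to 0.41) for collagen biosynthesis, opposite in sign to its median, and -0.43 (95% CI -0.53 to -0.32) for the other receptors. It was -0.17 for other matrix proteins, -0.20 for proteases and inhibitors and -0.11 for focal adhesion. The sum for collagen biosynthesis, 1009 and 1201 copies, rested largely on P4hb, which alone had 502 and 745. Of the 11 listed genes of collagen biosynthesis, 5 had a higher and 6 a lower ratio.

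Markers of the cell types in the dish were listed unevenly. All 14 neuronal markers were listed, with 16452 and 14327 copies, and 6 of them had a higher and 8 a lower ratio. At the FDR alone 6 were lower and 2 higher. The lower ones were Stmn2 (7484 and 5678), Tubb3 (1538 and 1068), Neurod6 (1275 and 849), Nefm (305 and 211), Elavl3 and Snap25. Stmn2 held the most copies of the list and had its largest fall in copies. The higher ones were Gap43 (2670 and 3541) and Neurod2 (570 and 777). Elavl3 (125 and 75) and Snap25 (918 and 545) were called lower, beside 5.97% of all genes. After the tag-end correction Elavl3 was still called and Snap25, at a log2 ratio of -0.57, was not. The log2 ratio of Gap43 was 0.44 before the correction and -0.52 after it. Of 10 radial glia and astrocyte markers, 9 were listed, with 3738 and 4564 copies, of which Vim alone had 2674 and 3724. None of the 9 was called, and 7 of them had a lower and 2, Vim and Gfap, a higher ratio. At the FDR alone 1 was higher, Vim (log2 ratio 0.51, Fisher's exact test FDR 1.6e-47), and 1 lower, Nes (181 and 125 copies). After the tag-end correction Vim still passed the FDR threshold (log2 ratio 0.48) and Nes did not. Of 14 markers of meningeal fibroblasts and pericytes, 7 were listed with 936 and 971 copies, most of them on Tagln (565 and 661) and Acta2 (289 and 244); no value was found for Foxc1 and Foxd1. Of 11 endothelial markers, 4 were listed with 19 and 37 copies, among which Eng went from 7 to 27 and was called higher, though not after the correction (log2 ratio 0.98, Fisher's exact test FDR 0.375), and no value was found for Pecam1, Cdh5 and Kdr. Microglial markers, 7 of 10 listed, had 108 and 130 copies, and those of oligodendrocyte precursors, 5 of 5 listed, had 17 and 19. The microglial marker Aif1 (19 and 30 copies) was called higher only after the correction (log2 ratio 1.24, Fisher's exact test FDR 0.0317). The part of these other cells in the differences of Col18a1, Itgb1, Sparc, Fn1 and Timp2 was not tested.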

How the data were processed

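For each gene the authors deposited the tag count, the sum of the copies of its tags without normalization, and its TPM, which scales the copies to all clean tags of the library (3386865 for Scramble and 3303360 for PIWIL1 RNAi, recovered from the values). The deposited tables also hold the copies of each tag, with no tag under 2 copies. The submitters' processing notes name rn4; the aligner and the reference transcripts are not given in the sources used here. No coordinates are printed, because the reference table used for symbols (GRCr8) is of another build. By accession, or by description for 1 member (Col16a1), 9338 of 9894 genes had a symbol.

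The copies of each gene and all other copies on genes were set in a Fisher's exact test (two-sided), with Benjamini-Hochberg adjustment (FDR) over 9894 genes. Calls used the study's limits, an FDR up to 0.05 and a log2 TPM ratio of 0.58 or beyond in size. Intervals are exact (Clopper-Pearson, 95%) and, like the log2 ratios, are scaled to clean tags, whereas the test used copies on genes. On the scale of clean tags the log2 ratio of all copies on genes was -0.026. A p-value and an interval can differ: Timp1 had an unadjusted p of 0.0466 (Fisher's exact test) beside an interval that included 0. Copies of a tag are amplified reads and not independent molecules, so intervals and the 3-copy floor cover counting error only. Scripts were tested on simulated data.

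Members, lists and tests were chosen with earlier results of these data known. Members with at least 20 copies are given with their copies, and those called or with at least 100 copies with the ratio; rarer ones are also named with their copies, except 1 that is not reported here. The tag-end correction grouped tags by their final 2 bases, or by the length of a closing A run of 3 or longer, with runs from 13 upward as a single group. From tags of at least 20 copies, after adding 0.5, a median log2 ratio was found for every such group in one portion of the genes. Its difference from the median of all tags of that depth in the same portion was taken off the tags of the other portion. The value thus depended on the portion: for the end TG it was -0.70 for Fn1 and -0.47 for Ncan. Python 3.11.15, NumPy 2.4.6, pandas 2.3.3, SciPy 1.17.1, Matplotlib 3.10.9, R 4.3.3, edgeR 4.0.16 and DESeq2 1.42.0 were used. Alternatives were TMM and DESeq2 scaling, edgeR's exact test with an assumed coefficient of variation, added or restored copies, a filter, summing per symbol, tags ending in A runs left out, the tag-end correction and a log2 threshold of 1.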

Additional observations from a re-analysis of the deposited data

How the results depend on the processing

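The count of members called lower was 1 (Col18a1), and that of members called higher 0, under TMM and DESeq2 scaling, 1 copy added to each gene, a minimum of 10 copies, copies summed per symbol, omission of tags that close with at least 8 A, the tag-end correction, restoring 1 copy to tags missing from one of the libraries, and a log2 threshold of 1. In edgeR's exact test with replicate variation set to a coefficient of 0.1, 0.2 or 0.4, 0 members were called lower and 0 higher, and over all genes the calls were 170 lower and 114 higher, 2 and 15, and 0 and 0. Without the log2 threshold, an alternative chosen after seeing the data, 4 members were lower and 1 higher. The log2 ratio of the summed copies was -0.022 with TMM factors, -0.031 with DESeq2 size factors and -0.033 after the tag-end correction, and, in alternatives chosen after seeing the data, -0.053 without Sparc and -0.035 without Sparc and Col1a1. The sign changed for Col3a1 (0.036 with TMM and 0.027 with DESeq2 size factors) and, after the tag-end correction, for Bgn (-0.0038), Col6a2 (-0.14) and Lamb2 (-0.018), none of them called; the cause was not tested. TMM scaling moved the calls over all genes from 591 lower and 293 higher to 459 and 398. The tag-end correction gave 366 and 187. No paired analysis was possible because each group had 1 library, and no library could be left out. Depth limits the 14 members with fewer than 20 copies.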

Other observations

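Several member tags resembled tags of other genes. The site 4 tag of Ncan, which went from 42 to 10 copies, differed by 1 base from a tag listed under Ctdspl with 5 and 4 copies. The site 4 tag of Itgb1bp1 (52 and 38 copies) differed by 2 bases from a tag of Cop1 with 327 and 184 copies. The site 8 tag of Col1a1 (63 and 57 copies) differed by 2 bases from the site 3 tag of its partner chain Col1a2 (131 and 137 copies). At the most 3′ CATG site (site 1) lay 49.9% of member copies and 63.6% of all copies, a difference that was not tested. The pooled share of the members mixes unlike genes, with 85.5% for Sparc, 23.8% for Col1a1 and 1.25% for Timp2.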
